A study of Mus musculus with 70 samples.

Results

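The comparison described here set dorsal hippocampus libraries of mice that had a running wheel until training against those of mice whose wheel had been taken away days earlier. Its members are 50 of the 70 libraries of the series, chosen by group. The running arm pooled 30 libraries of the groups 14-0-0, 14-7-2 and 0-0-2, and the removed arm pooled 20 libraries of 14-7-0 and 14-14-0, with 10 libraries in each group. The numbers in a group's name are its days of initial voluntary wheel running, of sedentary delay without a wheel, and of reactivating wheel running. All mice were adult male C57BL/6J, housed singly, and those of these 5 groups had a 3-min acquisition session of the object location memory task (OLM), too short on its own to form long-term memory. Both dorsal hippocampi were taken 1 h after the session, in 2 harvest cohorts with 5 libraries of each group in each. The wheels of every exercise group were taken out on the night before training, per the methods. The arms therefore differ in whether the wheel was there up to that night or had been absent for 7 or 14 days. The arms also differ in total running, because 0-0-2 ran for only 2 days. The study further reports that the distance run in the initial 14 days varied between its groups, with 14-7-0 running more than 14-0-0. Neither difference can be told apart from the time since the last running. The comparison asks which transcripts differ with recent wheel access across different exercise histories.

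Cholesterol in the brain is made locally, because the lipoproteins of the blood do not cross into it, and the synthesis enzymes are controlled together by the transcription factor SREBP2, which is activated when the sterol content of the endoplasmic reticulum falls. Myelin holds most of the brain's cholesterol, and neurons also receive it from astrocytes. The circadian clock is a feedback loop in which ARNTL and CLOCK act on E-box sequences to drive the Per, Cry and Nr1d genes and outputs such as Dbp, while the NR1D proteins repress Arntl. In bulk tissue, fewer cells of a type and less RNA per cell cannot be told apart, and that holds for every group of genes below.

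Values are FPKM (fragments scaled to transcript length and to the mapped fragments of the library). Differences are on the scale of log2(FPKM + 0.1), running minus removed, from limma's moderated test, with adjusted p after Benjamini and Hochberg over the 12994 genes whose average FPKM across the 70 libraries reached 1. The table holds no read counts, and the read totals that the study lists are under names that the labels do not tie to libraries, so they were not used here. A relative depth estimated from the FPKM of rare genes was 0.0362 in 14-7-0 replicate 4, against 0.346 to 1.48 in the other libraries of the arms. That library listed 10279 genes at 0 FPKM, against 6243 to 7199 in the other 49. The pooled comparison is therefore also given without it, while the comparisons of single groups were made with it only. The p-values measure the spread between these libraries of single mice. The arms pool only 3 and 2 exercise schedules, and the p-values do not measure how far other schedules would vary.

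At an unadjusted p under 0.05, 657 genes (5.06%) were higher and 516 (3.97%) were lower in the running arm, where 649.7 of both directions together are expected by chance alone. The median difference over all genes was 0.01. After adjustment 36 genes (0.277%) passed, 26 of them higher and 10 lower, with differences between 0.11 and 0.84 in size. The cholesterol synthesis list gave 9 of the 36 genes and the clock list 3. In all 36 genes the 3 running group means lay on one side of both removed group means. That holds for 2146 tested genes (16.5%) in the higher and 1243 (9.57%) in the lower direction. The 6 group differences come from the libraries that made the call, so their shared direction describes the call and is no separate evidence for it.

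**Figure D1:**
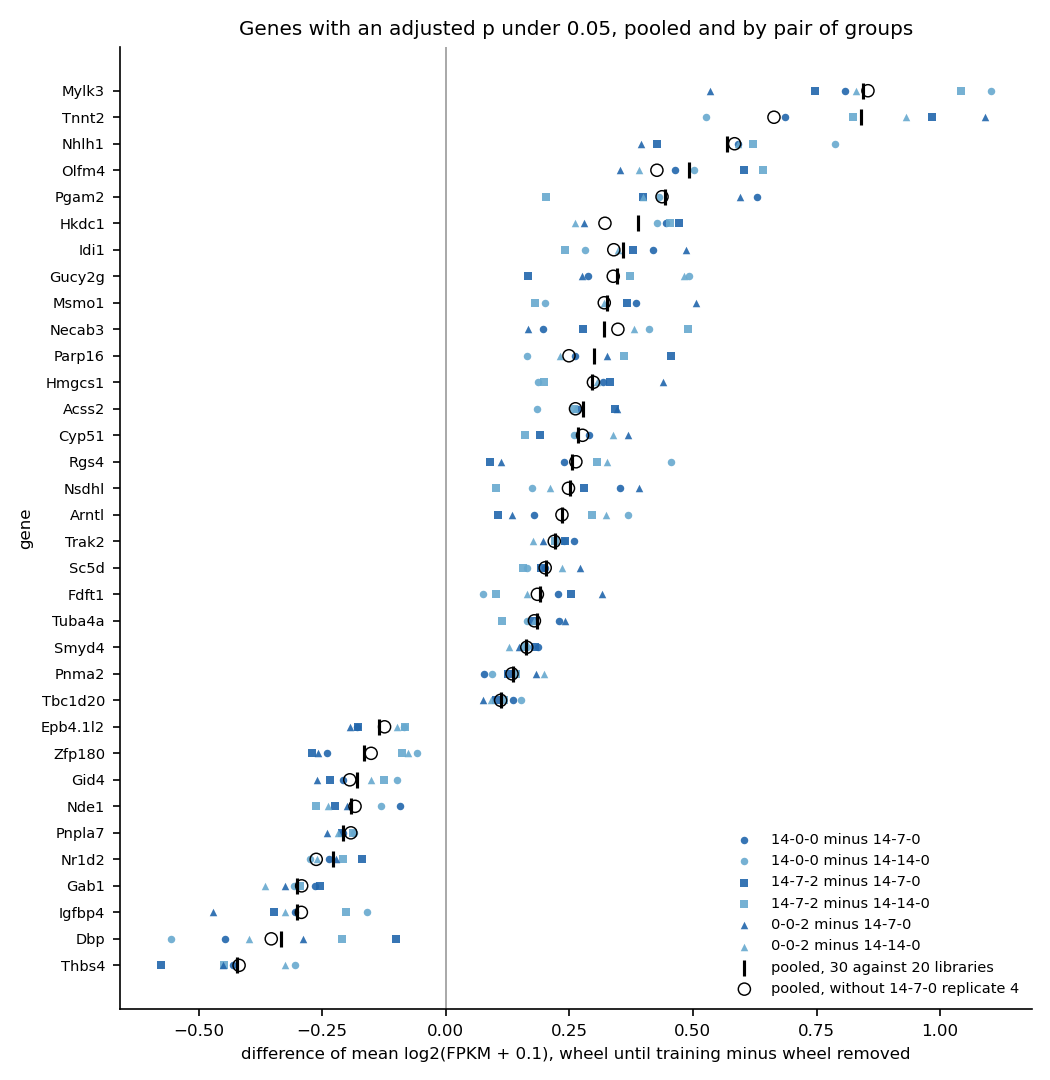
Difference in log2(FPKM + 0.1), running minus removed, on the horizontal axis for 34 of the 36 genes with an adjusted p under 0.05, 1 gene per line. The points are the 6 group differences, the bar is the pooled difference of 30 and 20 libraries, and the open circle is the difference without 14-7-0 replicate 4. All points of a gene lie on one side of 0.

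Promoters are shown first for 4 of the cholesterol synthesis genes that led the higher genes and have a RefSeq window, because the members of that list moved together. Each window runs from 250 bases before to 50 bases after the annotated start, 5′ to 3′ on the gene's strand, from RefSeq on GRCm38.p6. Capitals mark the CCAAT box (CCAAT) and the sterol regulatory element core (SRE core, TCACNCCAC), each searched on both strands. Hmgcs1 lies at chr13:119690101-119690400 (plus strand), Idi1 at chr13:8885356-8885655 (plus), Msmo1 at chr8:64733529-64733828 (minus) and Nsdhl at chrX:72918271-72918570 (plus).
Hmgcs1: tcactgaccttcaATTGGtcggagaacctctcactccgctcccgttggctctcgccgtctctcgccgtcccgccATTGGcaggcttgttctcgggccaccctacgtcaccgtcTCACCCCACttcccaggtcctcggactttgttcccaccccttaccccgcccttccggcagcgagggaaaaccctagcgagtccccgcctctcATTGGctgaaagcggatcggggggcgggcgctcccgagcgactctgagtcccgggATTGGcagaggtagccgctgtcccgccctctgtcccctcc
Idi1: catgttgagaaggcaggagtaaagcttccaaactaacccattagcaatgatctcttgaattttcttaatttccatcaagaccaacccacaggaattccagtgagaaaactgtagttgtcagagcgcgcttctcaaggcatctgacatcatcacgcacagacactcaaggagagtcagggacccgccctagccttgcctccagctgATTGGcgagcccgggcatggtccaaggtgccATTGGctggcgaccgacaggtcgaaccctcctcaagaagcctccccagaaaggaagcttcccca
Msmo1: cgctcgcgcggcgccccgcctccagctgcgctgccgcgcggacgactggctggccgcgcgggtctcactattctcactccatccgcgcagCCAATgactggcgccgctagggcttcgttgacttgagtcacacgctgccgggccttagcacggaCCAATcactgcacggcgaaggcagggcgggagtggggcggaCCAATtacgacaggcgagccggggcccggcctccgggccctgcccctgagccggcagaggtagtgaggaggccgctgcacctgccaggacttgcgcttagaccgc
Nsdhl: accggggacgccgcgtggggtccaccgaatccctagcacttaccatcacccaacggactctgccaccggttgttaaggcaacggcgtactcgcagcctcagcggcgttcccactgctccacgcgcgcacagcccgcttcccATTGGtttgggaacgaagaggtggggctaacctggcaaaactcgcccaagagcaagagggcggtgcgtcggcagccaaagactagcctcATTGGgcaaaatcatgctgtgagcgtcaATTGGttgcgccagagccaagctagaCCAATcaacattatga

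The Hmgcs1 window held 1 SRE core, starting 137 bases before the start, and 4 CCAAT boxes. Idi1 held 2 CCAAT boxes, Msmo1 held 3 and Nsdhl held 4, and none of these 3 windows held the SRE core. Of the 20 tested cholesterol synthesis genes, 14 had a window, and all 14 (100%) held a CCAAT box while 1 (7.14%) held an SRE core. Among the 10277 tested genes with a window the shares were 42.7% for the CCAAT box and 1.38% for the SRE core. Over all 32851 windows they were 37.4% and 1.24%. The CCAAT share was 77.8% (14 of 18) in the clock list, 65.6% in the adjusted genes and 45.5% in the myelin list. A CCAAT share above that of the tested genes was thus not particular to the cholesterol list. Sc5d and Cyp51 also had a window, which is not shown. A match is only a match of letters, and the absence of one says nothing about the factor.

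Transcripts of cholesterol synthesis were higher in the running arm. Of the 20 list members, which were all tested, 16 rose and none fell at an unadjusted p under 0.05, against 5.06% and 3.97% over all genes tested. The median difference of the list was 0.22, against 0.01 over all genes, and all 20 differences were positive. Adjusted over all genes, 9 members passed, among them Sc5d, Cyp51, Idi1, Hmgcs1, Msmo1, Nsdhl and Fdft1. The list's summed level ranged from 461 to 637 FPKM in the running arm, with a median of 551, and from 387 to 552 in the removed arm, with a median of 473.

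The first enzymes of the pathway make mevalonate. Hmgcs1, which condenses acetyl-CoA units to HMG-CoA, had a lowest, median and highest level of 63.4, 93.1 and 110 FPKM in the running arm and of 57.1, 73.5 and 95.8 FPKM in the removed arm. The ranges overlapped, and 28 of the 30 running libraries lay above the removed median. The difference was 0.30 ± 0.054 (SE) on the log2 scale, a fold of 1.23, with an adjusted p of 0.00315. Kinases later in the pathway gave differences of 0.24 for Mvk (p = 0.0524) and 0.11 for Pmvk (p = 0.0838), and neither passed. The decarboxylase Mvd rose by 0.23 at an unadjusted p of 0.038.

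Isoprenoid and squalene steps came next. Idi1, the isomerase that sets the balance of the isoprene units, had the largest difference of the list. Its level was 20.4, 28.5 and 37.6 FPKM (lowest, median and highest) in the running arm and 17.4, 21.7 and 32.8 in the removed arm. Its ranges overlapped, with 29 of 30 running libraries above the removed median. The difference was 0.36 ± 0.064, with an adjusted p of 0.00269. Fdft1, squalene synthase, reached 20.4, 25.8 and 28.9 FPKM against 16.7, 22.2 and 27.6, a difference of 0.19 (adjusted p = 0.0296). Fdft1 overlaps Ctsb in the annotation, and without strand the reads of overlapping genes cannot be told apart. Fdps, Sqle and Lss, which make farnesyl diphosphate, squalene epoxide and lanosterol, rose by 0.21, 0.22 and 0.15 at an unadjusted p only (adjusted p = 0.126, 0.0897 and 0.107).

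The enzymes that turn lanosterol into cholesterol held 4 of the adjusted genes. Cyp51, the lanosterol demethylase, had 14.8, 18.1 and 23.8 FPKM in the running arm and 13.1, 15.5 and 18.0 in the removed arm. The highest removed library lay just below the running median, and the difference was 0.27 ± 0.046 (adjusted p = 0.00202). Msmo1, a sterol methyl oxidase, had 45.3, 63.6 and 79.4 FPKM against 38.6, 48.7 and 68.2 and differed by 0.33 (adjusted p = 0.00516). Nsdhl, the dehydrogenase of the same demethylation steps, had 10.6, 12.7 and 16.7 FPKM against 8.32, 10.3 and 14.3. All 30 running libraries lay above its removed median, and the difference was 0.25 (adjusted p = 0.0068). Sc5d, a desaturase near the end of the pathway, had 24.0, 30.6 and 36.7 FPKM against 24.6, 26.3 and 31.7. Its lowest running library lay below every removed one, while 29 running libraries lay above the removed median, and the difference was 0.20 (adjusted p = 0.00202). Hsd17b7 rose by 0.17 and Dhcr7 by 0.16 at an unadjusted p.

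**Figure D2:**
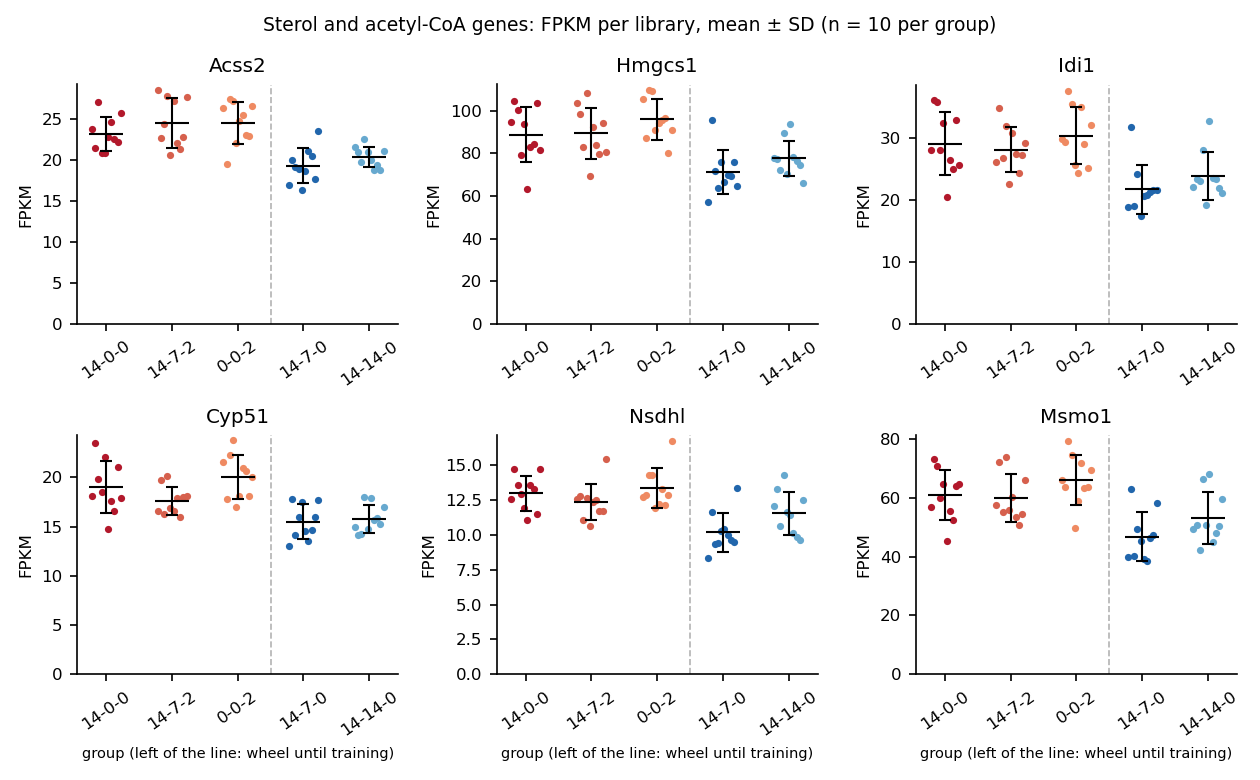
FPKM of Acss2, Hmgcs1, Idi1, Cyp51, Nsdhl and Msmo1 on the vertical axes, 1 panel per gene, for the 10 libraries of each of the 5 groups. Points are libraries and the bars are the mean ± SD. In every panel the means of 14-0-0, 14-7-2 and 0-0-2 lie above those of 14-7-0 and 14-14-0, while single libraries overlap.

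Regulators of the same system were tested in the list too. Insig1, which holds the SREBP proteins back, rose by 0.15 at an unadjusted p, and Srebf2, the gene of SREBP2 itself, gave 0.07 (p = 0.454).

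The gene of smallest p in the whole comparison lies next to this pathway. Acss2 (chr2:155518043-155562743) encodes an acetyl-CoA synthetase and is a known SREBP target. Its level was 19.5, 23.5 and 28.6 FPKM in the running arm and 16.3, 19.9 and 23.6 in the removed arm. The arms overlapped, but 29 of 30 running libraries lay above the removed median. The difference was 0.28 ± 0.042, a fold of 1.21, with an adjusted p of 0.000315, and it passed an unadjusted p of 0.05 in 6 of the 6 group comparisons, with differences from 0.18 to 0.35. Acss2 overlaps an antisense transcript, Acss2os, from which its reads cannot be told apart. Of 17 tested genes of fatty acid synthesis and other SREBP targets, 4 rose, namely Acss2, Stard4, Acat2 and Fads1, and none fell, against 5.06% of all genes higher and 3.97% lower, with a median of 0.05. Of 14 tested genes of cholesterol efflux and transport, Npc1 fell by 0.17 and Abca1 by 0.21, Lrp8 rose by 0.10, and the median was -0.05, beside the same shares of all genes. Both of these lists were chosen after values were seen.

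**Figure D3:**
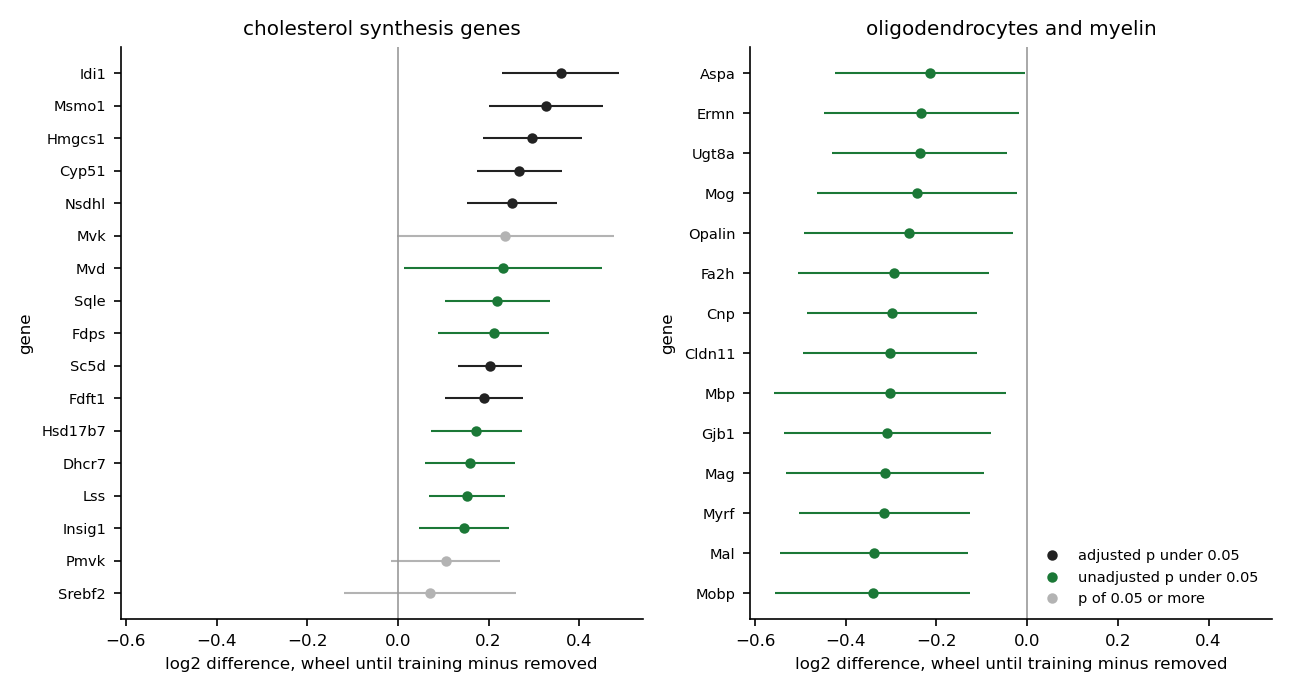
Difference in log2(FPKM + 0.1), running minus removed, with its 95% interval for 17 of the cholesterol synthesis genes and 14 of the oligodendrocyte and myelin genes. Black marks an adjusted p under 0.05, green an unadjusted p under 0.05 and grey neither. All 17 cholesterol genes drawn lie right of 0 and all 14 myelin genes drawn left of it.

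The cholesterol difference is given next for each running group against each removed group. Against 14-7-0, 14 of 20 members were higher in 14-0-0 (median 0.24), 15 in 14-7-2 (0.23) and 18 in 0-0-2 (0.34). Against 14-14-0, 8 were higher in 14-0-0 (median 0.12), 6 in 14-7-2 (0.11) and 14 in 0-0-2 (0.21). No member was lower in any of the 6 comparisons, which share libraries. Over all genes the shares higher and lower against 14-7-0 were 3.6% and 2.03% for 14-0-0, 2.03% and 3.36% for 14-7-2, and 1.7% and 2.72% for 0-0-2. Against 14-14-0 they were 5.48% and 1.68% for 14-0-0, 5.73% and 5.33% for 14-7-2, and 3.48% and 2.28% for 0-0-2. Between the removed groups 14-7-0 and 14-14-0, 5 of the 20 members and 1011 genes of all tested (7.78%) differed at an unadjusted p under 0.05.

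With 14-7-0 replicate 4 left out, 31 genes passed adjustment, and all 31 were among the 36. The counts at an unadjusted p became 610 higher and 536 lower. The 5 genes that no longer passed were Tuba4a, Gab1, Epb4.1l2, Gucy2g and Parp16, with an adjusted p of 0.0519 to 0.0654. All 36 kept their sign and an unadjusted p under 0.05. Of the cholesterol list 19 members were then higher, and Acss2 differed by 0.26 (adjusted p = 0.000853).

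Other genes higher in the running arm had varied roles. Pgam2, the muscle form of the glycolytic phosphoglycerate mutase, had 5.94, 11.0 and 15.4 FPKM in the running arm and 4.78, 8.31 and 11.7 in the removed arm, and 29 of 30 running libraries lay above the removed median. The difference was 0.44 ± 0.087 (adjusted p = 0.0068). Necab3, which encodes a neuronal calcium-binding protein, had 9.09, 13.7 and 17.1 FPKM against 7.09, 10.7 and 15.7 and differed by 0.32 (adjusted p = 0.00813), but it overlaps E2f1 and Actl10. Rgs4, an inhibitor of G protein signaling, had 46.3, 68.1 and 92.9 FPKM against 46.6, 57.1 and 69.0. It differed by 0.25 (adjusted p = 0.0315), and its groups also differed within arms (p = 0.0278).

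The largest differences among the 36 genes belonged to transcripts of low level. Mylk3, a myosin light chain kinase of heart muscle, had 0.239, 2.94 and 4.75 FPKM in the running arm and 0.461, 1.46 and 2.76 in the removed arm. Its lowest library of all lay in the running arm, while 28 of 30 running libraries lay above the removed median, and the difference was 0.84 (adjusted p = 0.013). Tnnt2, a troponin of heart muscle, had 0.714, 1.64 and 3.63 FPKM against 0, 1.19 and 1.89, where the 0 is the value listed for 14-7-0 replicate 4. Its difference was 0.84 with that library and 0.66 without it (adjusted p = 0.0442 and 0.0345). Olfm4 differed by 0.49, Nhlh1 by 0.57, the hexokinase-like Hkdc1 by 0.39, Gucy2g by 0.35 and Parp16 by 0.30, all with an adjusted p under 0.05. The difference of Hkdc1 was 0.32 without 14-7-0 replicate 4. The other adjusted genes in this direction were Smyd4, Pnma2, Trak2, Tbc1d20 and Tuba4a, with differences from 0.11 to 0.22. Smyd4, Pnma2, Trak2, Tuba4a, Hkdc1 and Parp16 overlap other genes in the annotation.

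Lower genes were fewer. Gid4 (chr11:60417145-60445277), the substrate receptor of a ubiquitin ligase that in yeast degrades gluconeogenic enzymes, had 19.7, 22.5 and 24.7 FPKM in the running arm and 20.9, 25.9 and 29.4 in the removed arm. All 30 running libraries lay below the removed median. The difference was -0.18 ± 0.033 (adjusted p = 0.00315), and it became -0.19 without 14-7-0 replicate 4. Gid4 overlaps Atpaf2. Zfp180, a zinc finger gene, had 12.9, 14.7 and 16.2 FPKM against 13.5, 16.9 and 20.1, again with all 30 running libraries below the removed median, and differed by -0.17 (adjusted p = 0.0116). Zfp180 also differed between 14-7-0 and 14-14-0 (p = 0.000352).

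The other lower genes outside the clock list had varied roles. Igfbp4, which binds insulin-like growth factors, had 30.4, 43.3 and 65.1 FPKM in the running arm and 34.4, 52.4 and 72.3 in the removed arm and differed by -0.30 (adjusted p = 0.0255). Thbs4, a thrombospondin of the extracellular matrix, had 1.88, 4.77 and 6.52 FPKM against 3.78, 6.42 and 9. For Thbs4, 29 of 30 running libraries lay below the removed median, and the difference was -0.42 (adjusted p = 0.0305). Pnpla7, a lysophospholipase, differed by -0.21 (adjusted p = 0.0209). Gab1, a docking protein of growth factor receptors, differed by -0.30 (adjusted p = 0.033) and Nde1, a regulator of dynein, by -0.19 (adjusted p = 0.0305). Epb4.1l2, a membrane skeleton protein, differed by -0.14 (adjusted p = 0.0344). Pnpla7 and Gab1 overlap noncoding genes or pseudogenes in the annotation.

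Clock genes moved in both directions. Of 21 tested members of the clock list 8 fell and 2 rose at an unadjusted p, against 3.97% and 5.06% over all genes, and the list's median was -0.07. The transcripts that fell were Dbp, Nr1d2, Ciart, Bhlhe40, Per3, Hlf, Tef and Rorb, and those that rose were Arntl and Nfil3. Promoters of one gene of each direction are given, because the textbook loop assigns them different elements. They come from the same RefSeq set, with the E-box (CACGTG) and the core of the ROR element (RORE core, TAGGTCA) in capitals where found on either strand. Ciart lies at chr3:95882179-95882478 (minus strand) and Arntl at chr7:113207261-113207560 (plus).
Ciart: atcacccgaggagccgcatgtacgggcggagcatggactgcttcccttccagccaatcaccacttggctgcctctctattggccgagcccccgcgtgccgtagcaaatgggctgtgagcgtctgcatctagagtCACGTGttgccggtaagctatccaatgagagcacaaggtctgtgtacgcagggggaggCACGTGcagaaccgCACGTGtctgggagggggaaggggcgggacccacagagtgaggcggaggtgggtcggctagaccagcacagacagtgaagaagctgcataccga
Arntl: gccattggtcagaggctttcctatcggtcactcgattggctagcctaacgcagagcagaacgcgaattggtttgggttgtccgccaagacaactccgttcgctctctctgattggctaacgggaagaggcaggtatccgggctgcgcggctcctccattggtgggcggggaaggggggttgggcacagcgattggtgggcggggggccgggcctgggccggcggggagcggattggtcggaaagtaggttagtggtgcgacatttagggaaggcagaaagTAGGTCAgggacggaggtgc

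The Ciart window held 3 E-boxes and the printed Arntl window 1 RORE core. Arntl had 2 windows, and of a gene's windows the one with the most motif matches was printed. The adjusted genes Dbp and Nr1d2 also had a window, which is not shown. Of the 18 clock genes with a window, 5 (27.8%) held an E-box and 2 (11.1%) a RORE core. The shares were 11.9% and 2.09% of the tested genes with a window and 7.15% and 2.61% of all windows. Of the 14 cholesterol synthesis genes with a window, 4 (28.6%) held an E-box and 1 (7.14%) a RORE core. The E-box share was thus not particular to the clock list. Dbp, a transcription factor under direct control of the clock, had 8.09, 11.4 and 18.1 FPKM in the running arm and 10.7, 15.1 and 18.4 in the removed arm, with 28 of 30 running libraries below the removed median. The difference was -0.33 ± 0.076 (adjusted p = 0.0305). The groups within arms also differed for Dbp (p = 0.019), with means of 10.5 ± 2.01 in 14-0-0, 13.3 ± 2.48 in 14-7-2 and 11.7 ± 2.05 FPKM in 0-0-2 (SD, n = 10 each). Dbp overlaps Sphk2 in the annotation.

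Nr1d2 and Arntl differed in opposite directions, and whether 1 acts on the other here was not tested. Nr1d2, one of the NR1D repressors, had 15.1, 19.7 and 26.5 FPKM in the running arm and 14.6, 23.6 and 26.1 in the removed arm. The lowest removed value was that of 14-7-0 replicate 4, and without it the removed libraries began at 19.4 FPKM. The difference was -0.23 (adjusted p = 0.0441) with that library and -0.26 (adjusted p = 0.00381) without it. Arntl had 9.64, 15.3 and 18.3 FPKM against 10.4, 12.4 and 16.6 and differed by 0.23 ± 0.053 (adjusted p = 0.0296), and it overlaps the noncoding Gm33721 in the annotation. For Arntl the removed groups differed as well (p = 0.0201), at 13.5 ± 1.5 FPKM in 14-7-0 and 11.8 ± 0.774 in 14-14-0 (SD, n = 10 each).

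Other clock outputs passed an unadjusted p only. Ciart, a repressor of ARNTL and CLOCK, had 2.09, 3.54 and 5.42 FPKM in the running arm and 3.05, 4.53 and 6.55 in the removed arm and fell by 0.35 (adjusted p = 0.106). Bhlhe40 fell by 0.21, Per3 by 0.23 and Hlf by 0.19, while Per2 gave -0.11 (p = 0.052) and Per1 -0.11 (p = 0.197). By group, the clock members lower were 8, 3 and 4 of 21 in 14-0-0, 14-7-2 and 0-0-2 against 14-7-0, and 5, 3 and 3 against 14-14-0. Without 14-7-0 replicate 4 the pooled comparison had 10 members lower. Tissue was collected within a window of hours that the study kept short to limit circadian differences, and the hour of each library is not given in the labels.

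**Figure D4:**
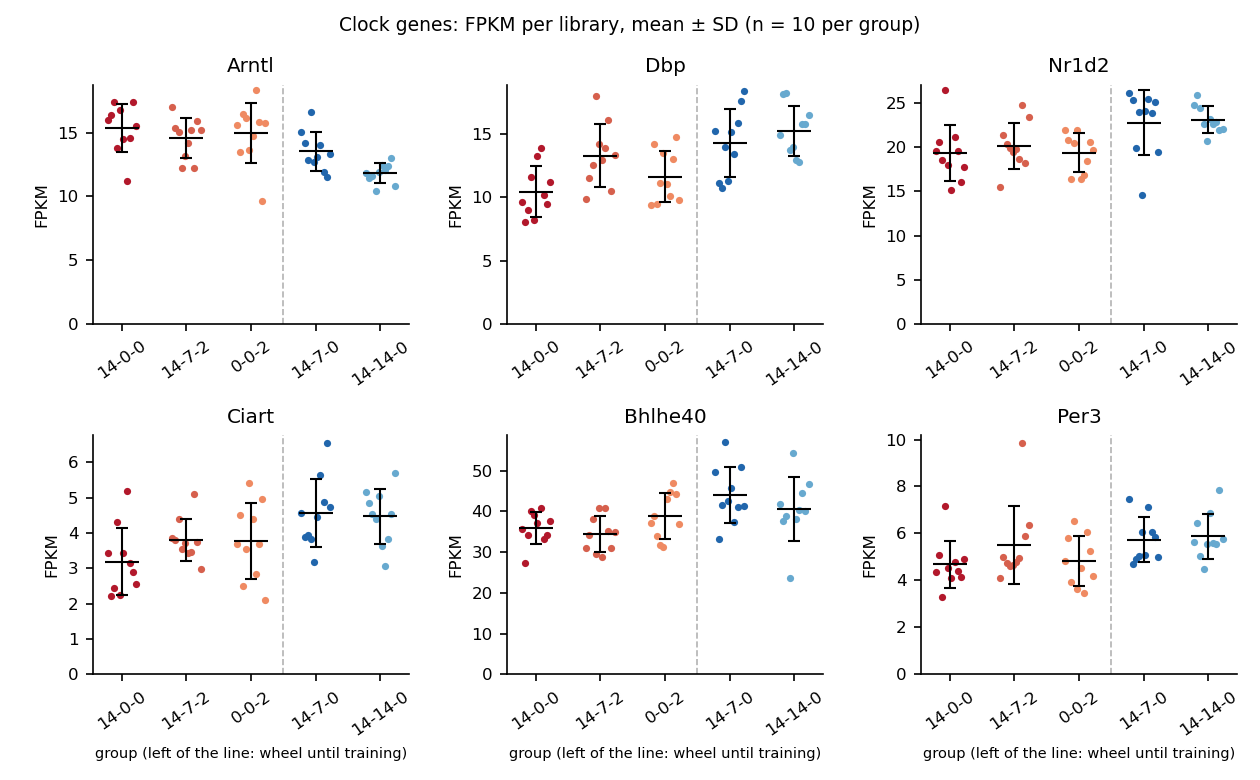
FPKM of Arntl, Dbp, Nr1d2, Ciart, Bhlhe40 and Per3 on the vertical axes for the 10 libraries of each of the 5 groups. Points are libraries and the bars are the mean ± SD. Arntl means are higher in the running groups and those of the other 5 genes are lower, with overlap of single libraries.

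Myelin transcripts were lower in the running arm. All 15 tested genes of the oligodendrocyte and myelin list fell at an unadjusted p, against 3.97% of all genes, with a median of -0.30, but none passed adjustment. Myrf, the transcription factor of myelination, had 6.22, 9.99 and 16 FPKM in the running arm and 7.52, 12.7 and 18.8 in the removed arm and fell by 0.32 (p = 0.00146, adjusted p = 0.15). Among structural genes, Mal fell by 0.34, Cnp by 0.30, Mobp by 0.34 and Mbp by 0.30, with overlapping arms. The summed level of the list was 1489 to 4094 FPKM with a median of 2759 in the running arm, and 1715 to 5026 with a median of 3425 in the removed arm. Of 10 precursor markers 5 fell, namely Enpp6, Bmp4, Olig2, Gpr17 and Sox10, against 3.97% of all genes, and the median was -0.16. That count was 1 in harvest cohort 1 alone, 1 without 14-7-0 and 3 without 0-0-2.

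By group, the myelin counts were as follows. Against 14-7-0, 9 of the 15 genes were lower in 14-0-0, 9 in 14-7-2 and 15 in 0-0-2 (medians -0.31, -0.32 and -0.50). Against 14-14-0 the counts were 1, 0 and 3 (medians -0.12, -0.14 and -0.32). In harvest cohort 1 alone none of the 15 was called and in cohort 2 alone all 15 were, and a test of the difference between cohorts passed an unadjusted p for 3 of them. Without 14-7-0 replicate 4, 14 of the 15 were lower. The cholesterol list moved the opposite way from myelin, and with the myelin score as a covariate, a setting added after the data were seen, 18 of 20 cholesterol genes were higher and 34 genes passed adjustment, 24 of them shared with the 36.

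**Figure D5:**
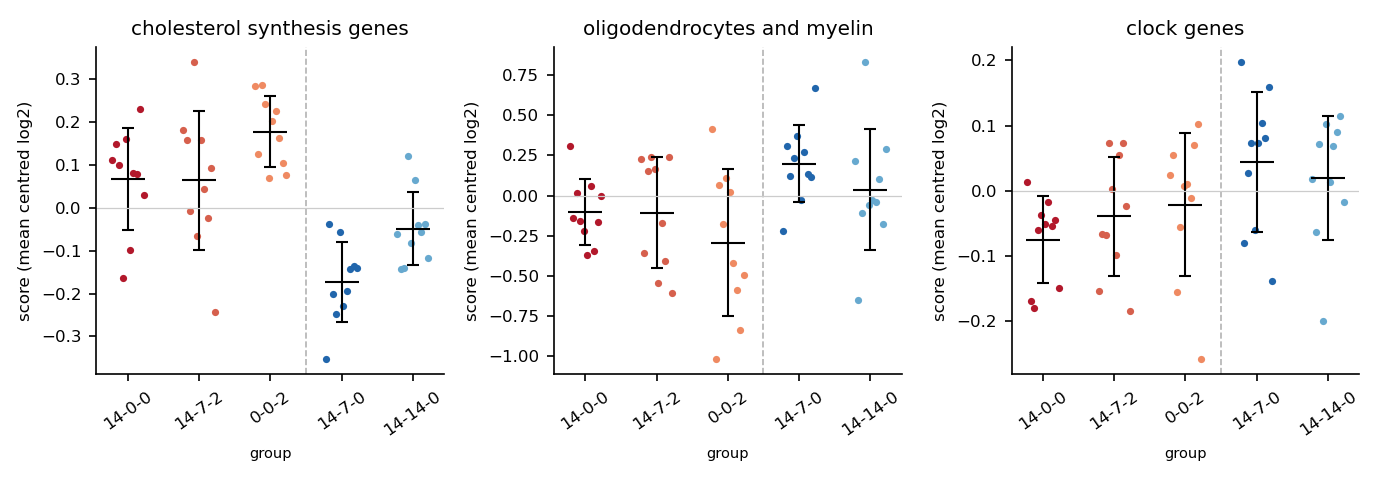
Score of each library for the cholesterol synthesis, myelin and clock lists, by group. The score is the mean over the list's genes of log2(FPKM + 0.1) after subtracting each gene's mean, points are libraries and bars are the mean ± SD. The cholesterol scores average 0.07, 0.06 and 0.18 in 14-0-0, 14-7-2 and 0-0-2 and -0.17 and -0.05 in 14-7-0 and 14-14-0.

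Markers of other cells are counted next, to be read against 5.06% higher and 3.97% lower over all genes. None of the tested markers of choroid plexus (18), meninges (12), astrocytes (12) or thalamus (10) passed an unadjusted p. Of 12 endothelial markers Flt1, Cdh5 and Pecam1 fell, of 12 microglial markers Csf1r and Ctss fell, of 12 granule cell markers Tdo2 and Calb1 rose, and of 13 pyramidal cell markers Bok rose. Npy alone of 14 inhibitory neuron markers rose. Of neocortex markers Lamp5 and Rorb fell, 2 of 9, and of 7 striatum markers 1 fell. Single libraries of both arms had high striatum or thalamus scores. The scores were 1.51 and 0.93 in 0-0-2 replicate 4 and 0.88 and 0.98 in 14-14-0 replicate 3. In 14-7-2 replicate 3 the thalamus score was 1.83 and the striatum score -0.38. The part of these libraries in the results was not tested. The granule and pyramidal cell markers were present in every library of the arms, with lowest summed levels of 124 and 347 FPKM. Choroid plexus transcripts varied from library to library, with summed levels of 60.8 to 18570 FPKM in the running arm and 105 to 25106 in the removed arm. All 18 differed between 14-7-0 and 14-14-0 at an unadjusted p. The part of the choroid plexus transcripts was not tested beyond the fit with their score as a covariate. In that fit 54 genes passed adjustment, all 36 included.

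Activin and TGF-beta signaling includes Acvr1c, the type I activin receptor that the study follows. Acvr1c had 2.93, 4.59 and 6.37 FPKM in the running arm and 2.08, 3.65 and 6.02 in the removed arm. The arms overlapped, with 26 of 30 running libraries above the removed median. Acvr1c overlaps the noncoding Gm13544 and the pseudogene Gm13545 in the annotation. The difference was 0.28 ± 0.084 (p = 0.00165, adjusted p = 0.161 by limma over all genes). The study chose Acvr1c on these libraries for its levels in 14-0-0 and 14-7-2, both of them running groups, so this p is not independent evidence of its direction. Its group differences were 0.29 and 0.42 for 14-0-0, 0.29 and 0.42 for 14-7-2, and 0.06 and 0.20 for 0-0-2, each against 14-7-0 and 14-14-0 in that order. Of 19 tested genes of the list 2 rose and 3 fell, against 5.06% of all genes higher and 3.97% lower. Bambi, a decoy receptor, rose by 0.21, while the inhibitory Smad7, the receptor Tgfbr1 and Smad1 fell by 0.22, 0.17 and 0.11, and the list's median was -0.05.

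Bdnf, the neurotrophin used as a reference gene for exercise, had 10.7, 21.4 and 30.8 FPKM in the running arm and 12.4, 18.7 and 25.6 in the removed arm. Its lowest value was in the running arm, although 26 of 30 running libraries lay above the removed median. The difference was 0.22 ± 0.077 (p = 0.00738, adjusted p = 0.277 by limma over all genes). The study listed Bdnf too as up against sedentary in 14-0-0 and 14-7-2 of these libraries, so this p is no independent evidence. By group, Bdnf differed from 14-7-0 and 14-14-0 by 0.25 and 0.42 in 14-0-0, by 0.14 and 0.30 in 14-7-2, and by 0.01 and 0.18 in 0-0-2. In the list of 17 tested neurotrophins and exercise-linked factors Npy also rose, by 0.26, and Igf1r fell by 0.14.

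Lists for activity, stress, metabolism and receptors follow, to be read against 5.06% higher and 3.97% lower over all genes. Of 21 immediate early genes Nptx2 and Fosl2 rose, by 0.18 and 0.20, and none fell, while 14 of the 21 differences were negative, with a median of -0.04. Of 15 glucocorticoid-responsive genes Cdkn1a rose. Of 20 chaperones of the endoplasmic reticulum Calr fell by 0.18 and Hsp90b1 by 0.15, and all 20 pooled differences were negative, with a median of -0.07. By group these differences varied in sign, with 15 of 20 positive in 14-0-0 and 13 in 0-0-2 against 14-7-0 (medians 0.02 and 0.03), and 6 members differed between 14-7-0 and 14-14-0. Of 14 heat shock and cold-inducible genes Rbm3 rose, and Bag3 and Hspb1 fell. Of 18 genes of lactate, ketone and glucose handling Ldha and Oxct1 rose, by 0.13 and 0.09, and the lactate carrier Slc16a1 fell by 0.12. Of 37 complex I genes Ndufs1 rose, and 33 differences were positive. Of 20 glutamate receptor subunits Grm7 and Gria3 rose, and of 12 GABA-A receptor subunits 2 rose, among them Gabra4. The study listed Gabra4 as up against sedentary in 14-0-0 and 14-7-2 of these libraries. Of 17 histone deacetylases and corepressors Hdac9 and Hdac1 rose and Ezh1 fell. None of 13 genes of adult neurogenesis was called in either direction.

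Within the arms, 648 genes (4.99%) differed between pooled groups by the F test at an unadjusted p, and none passed adjustment. Of the 36 adjusted genes 5 were among them, including Nsdhl, Zfp180, Dbp and Rgs4. The difference between the arms was also tested for a change between the harvest cohorts, and no gene passed adjustment (258 at an unadjusted p under 0.05).

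Set against the 10 libraries of sedentary mice (0-0-0), which had the OLM session but no wheel and which both arms share as their control, the running arm had 764 genes higher (5.88%) and 487 lower (3.75%). The removed arm had 251 higher (1.93%) and 345 lower (2.66%). Sedentary replicate 6 had list scores of 2.95 for striatum, 1.23 for thalamus and 1.25 for myelin. Its scores were -2.78 for granule cells and -1.52 for pyramidal cells, so results are also given without that library. After adjustment Nsdhl alone passed in the running arm, with a difference of 0.30 and an adjusted p of 0.0297 (0.0544 without sedentary replicate 6), and no gene passed in the removed arm. For the cholesterol list 10 genes were higher in the running arm than in sedentary (median 0.11). In the removed arm none was higher and 2 were lower, Pmvk by 0.14 among them, and the median was -0.11. For the clock list 1 gene was higher and 8 were lower in the running arm, and 2 were lower in the removed arm. For myelin 11 of 15 were lower in the running arm and none in the removed arm (medians -0.33 and -0.04). Without sedentary replicate 6, 1 myelin gene was lower in the running arm (medians -0.20 and 0.09). The cholesterol list then had 8 genes higher in the running arm and 3 lower in the removed arm. Over all genes 508 were then higher and 339 lower in the running arm, and 226 higher and 319 lower in the removed arm.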

How the data were processed

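RNA of bilateral dorsal hippocampus was sequenced by the authors as 50 bp single reads, from a kit that does not mark strand. Per the study's methods, reads were aligned with ELAND v2e and Bowtie, kept if unique with at most 2 mismatches, and passed through the Tuxedo protocol. The submitters' processing notes name mm10, Bowtie and Cuffnorm. The authors deposited FPKM values of 24346 genes, with no read counts, so no counting interval is given. Reads of overlapping genes cannot be told apart.

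The 12994 genes whose FPKM averaged 1 or more across the 70 libraries were tested on log2(FPKM + 0.1) with limma 3.58.1 in R 4.3.3 (two-sided, trend, no covariate), called at an unadjusted p under 0.05 and adjusted by Benjamini-Hochberg over all of them. The test was checked on simulated data. All members of the 27 gene lists and the choice of groups were set with earlier results of these data known, and 2 lists and the motifs were chosen after values were seen. Named genes are the 10 of smallest p in each direction, Acvr1c, Bdnf and up to 4 of smallest p per list. Other genes with a name in the text were picked after their values were seen. The results were recomputed under 21 other settings and under 1 covariate added after the data were seen. Promoters come from RefSeq (GRCm38.p6), in which 36 of the 36 adjusted genes matched. Figures were drawn with matplotlib 3.10.9 in Python 3.11.15. Some genes are counted but not reported here by name.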

Additional observations from a re-analysis of the deposited data

Results flagged for a closer look

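In 10 of 125 groups of 10 libraries, 1 per gene and group, the highest or lowest library was set apart from its nearest neighbour by more than Dixon's 95% value allows, where chance gives 6.25 (about 1 in 20). In 14-14-0, replicate 3 was the lowest for Pgam2 at 4.78 FPKM (group median 8.89), for Acvr1c at 2.08 (3.64) and for Bdnf at 12.4 (18.2). In 14-7-2, replicate 9 was the lowest for Pgam2 at 5.94 FPKM (9.90) and the highest for Nsdhl at 15.4 (12.5), and replicate 0 was the lowest for Necab3 at 10.6 (14.1). In 0-0-2, replicate 9 was the lowest for Necab3 at 9.09 FPKM (13.3) and replicate 8 the lowest for Thbs4 at 1.88 (5.42). In 14-0-0, replicate 5 was the highest for Igfbp4 at 62.8 FPKM (44.0). In 14-7-0, replicate 4, the library of lowest relative depth, was the lowest for Nr1d2 at 14.6 FPKM (24.1). These values describe single libraries, and their causes were not tested.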

How the results depend on the processing

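No named gene's call changed sign under any alternative. The myelin score is made of the myelin list's own genes, so as a covariate it takes out their shared difference by design. The median of that list was then 0.0034, which is no test of its difference, and 1 precursor marker was lower. Of 419 values of the 20 leading genes under the alternatives, 417 kept their call at an unadjusted p under 0.05 and 2 no longer passed. These 20 genes had the smallest p in the same data, which favors such a count. Of 1104 values of the 53 other named genes, 912 kept their call and 192 no longer passed. The 36 adjusted genes kept their sign under every alternative that tested them. The causes of the shifts below were not tested. The 657 genes higher became 423 with scaling by the median ratio (423 higher and 668 lower, 38.8% of calls higher, so the balance of calls turned), 1723 with limma's array weights, 375 with Cyber-T, 232 in harvest cohort 2 alone and 211 at p under 0.01. Quantile normalization gave 488 higher and 585 lower (45.5% higher), where it turned as well. The balance also turned in cohort 2 alone (232 higher and 421 lower) and with Cyber-T (375 and 388). It did so too without 14-0-0 (519 and 575) and without 14-14-0 (446 and 475). The 516 lower became 944 with array weights, 295 in cohort 1 alone, 257 with the myelin score as a covariate and 210 at p under 0.01. The 36 adjusted genes became 630 with array weights, 15 with Cyber-T, 0 in cohort 1 alone (530 higher and 295 lower at an unadjusted p) and 3 in cohort 2 alone, where fewer libraries were fitted. Leaving out 14-0-0, 14-7-2, 0-0-2, 14-7-0 or 14-14-0 left 17, 13, 18, 1 or 19 adjusted genes. The difference of Acvr1c was 0.19 (p = 0.0855) in cohort 2 alone by limma. That of Bdnf was 0.12 (p = 0.226) in cohort 2 alone, 0.16 (p = 0.0703) without 14-0-0 and 0.13 (p = 0.202) without 14-14-0. Clock genes lower were 4 in cohort 1 alone and 4 without 14-7-0, and cholesterol genes higher were 10 without 14-7-0. Myelin genes lower were 0 in cohort 1 alone, 8 without 0-0-2 and 2 without 14-7-0. With the myelin score they were 0, which that setting brings about by design. Genes higher in the running arm than in sedentary were 508 without sedentary replicate 6. Without 14-7-0 replicate 4, the granule cell and histone deacetylase lists each had 1 gene higher (2 with it). Genes lower were 1 of the microglial list (2 with it) and 0 of the striatum list (1 with it). The astrocyte and immediate early lists each had 1 gene lower (0 with it). Lower genes were 3 endoplasmic reticulum chaperones (2 with it) and 4 of the activin and TGF-beta list (3 with it).

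A replicate block gave 62 adjusted genes, all 36 included. Libraries of different groups with the same replicate number had correlations of their deviations from -0.41 to 0.70 (median 0.0756). The median was -0.023 for other numbers of the same cohort and -0.0078 for the other cohort. By this measure 9 of 50 libraries were closest to their own number. The main fit did not take the numbers as pairs, and what libraries of 1 number share was not tested.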
